A study of Mus musculus with 2 samples.

Results

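The regions described here are those near developmental transcription factor genes, in a STARR-seq map of activated mouse T helper 1 (Th1) cells. Of 14994 regions that the authors listed, 93 had as their nearest protein-coding start, within 100 kb of the region's centre, a gene of 13 families. The families were Hox, Lhx, Nkx, Dlx, Irx, Msx, the sine oculis homeobox genes, Fox, Sox, Pax, Tbx, Gata and Zic. Genes were taken by symbol and the rule used no effect value, but the families were chosen with earlier results of these data known. Left out by name were 5 family members with known roles in T cells (Tbx21, Gata3, Foxp1, Foxp3 and Foxo1), as were Foxred genes, which encode oxidoreductases. Not every family member with a role in lymphocytes was left out: Sox4 and Sox13, described below, were kept. The 93 regions were given to 70 of the 173 genes that meet the rule, 52 genes having 1 region, 14 genes 2, 3 genes 3 and Foxn3 4. The farthest regions inside the limit lay 91991 bp from Lhx9 (effect 0.92) and 93535 bp from Tbx4 (0.57), and the nearest outside it lay 109052 bp from Foxb1 (0.87) and 113651 bp from Foxn3 (-1.32).

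In STARR-seq, genomic fragments are placed in a reporter plasmid so that an active fragment raises its own transcription, and its share in the RNA output is set against its share in the DNA input. A plasmid in transient transfection does not carry the chromatin of the native locus. The 2 output libraries, from primary Th1 cells of strain C57BL/6NJ, form a single group with no second condition, and the labels give both the same donor identifier. All cells had interleukin-2, interleukin-12 p70 and anti-interleukin-4 for 4 days, and anti-CD3e and anti-CD28 for 3 days. The doses were 0.25 ug/mL of anti-CD3e in both libraries, 10 ng/mL of each interleukin as given for replicate 1, and 1 ug/mL of anti-CD28 and 2 ug/mL of anti-interleukin-4 as given for replicate 2. The deposited table joins both libraries, so no value below has a spread between replicates and read depth is unknown. Each effect is the authors' own signed score for that region, whose scale and direction are not stated, and a positive effect is read here as output above input. The table holds no gene expression, so whether a factor or a T cell marker was expressed in these cells was not examined.

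The genes concerned encode DNA-binding proteins that lay down the body plan and direct organ formation. Hox, Lhx, Nkx, Dlx, Irx, Msx and sine oculis homeobox proteins bind DNA through a homeodomain, Fox proteins through a forkhead domain, Sox proteins through an HMG box and Tbx proteins through a T-box. Gata and Zic proteins bind through zinc fingers and Pax proteins through a paired domain. The starts of such genes commonly lie in large CpG islands, stretches rich in G, C and the CpG dinucleotide, which Polycomb proteins hold silent in cells that do not use the gene. Some relatives are in contrast active in most cell types, among them the forkhead genes Foxk1, Foxk2, Foxj2, Foxj3, Foxn2 and Foxo3.

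The sequences behind the main contrast are shown first. Among regions at gene starts, those of Sox12 (chr2:152397826-152399200, effect 1.41) and Foxk2 (chr11:121259276-121260125, effect 1.36) had the highest effects, and that of Foxp4 (chr17:47924201-47925300, effect -1.69) and that of Foxj3 (chr4:119539051-119539950, effect -1.42) were among the lowest. Each line gives the longest stretch of the region that overlaps no annotated exon, up to 300 bases, on the plus strand of GRCm38. Among stretches of equal length the one nearest the region's centre was taken. Capitals mark matches to any of 17 consensus sequences spelled out further on. Over the printed stretch the GC content was 48.0% for Sox12, 60.7% for Foxk2, 66% for Foxp4 and 75.6% for Foxj3. Over the whole regions, to which the effects belong, it differed less: 65.2%, 65.8%, 69.8% and 70.8% in the same order. Of the positive stretches, that of Sox12 had 6 CpG and 2 CCAAT boxes, and that of Foxk2 had 28 CpG, 1 CCAAT box and 2 GGGCGG boxes. Of the negative ones, that of Foxp4 had 29 CpG, 2 GGGCGG boxes and the E-box CACGTG, and that of Foxj3, of 131 bases, had 20 CpG and 1 GGGCGG box. GGGCGG counts thus did not separate the signs in these 4 stretches. The CpG counts were not set per base, and the Foxj3 stretch was shorter than the others.
Sox12, positive: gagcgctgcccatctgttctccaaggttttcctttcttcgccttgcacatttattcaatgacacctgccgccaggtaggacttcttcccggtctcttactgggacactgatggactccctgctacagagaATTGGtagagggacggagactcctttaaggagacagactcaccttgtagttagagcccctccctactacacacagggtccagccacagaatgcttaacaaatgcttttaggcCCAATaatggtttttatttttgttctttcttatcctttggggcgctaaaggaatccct
Foxk2, positive: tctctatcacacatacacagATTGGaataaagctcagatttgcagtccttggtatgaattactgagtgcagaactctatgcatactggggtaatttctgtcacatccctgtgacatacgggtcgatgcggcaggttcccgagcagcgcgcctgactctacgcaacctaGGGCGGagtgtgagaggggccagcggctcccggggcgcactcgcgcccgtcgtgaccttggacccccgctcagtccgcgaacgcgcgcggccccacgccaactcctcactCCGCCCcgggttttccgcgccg
Foxp4, negative: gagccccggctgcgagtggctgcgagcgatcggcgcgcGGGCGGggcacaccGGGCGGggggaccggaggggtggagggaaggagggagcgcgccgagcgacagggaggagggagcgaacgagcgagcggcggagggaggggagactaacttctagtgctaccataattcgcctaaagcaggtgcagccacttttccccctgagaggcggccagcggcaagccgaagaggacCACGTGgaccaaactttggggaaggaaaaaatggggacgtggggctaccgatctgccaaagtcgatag
Foxj3, negative: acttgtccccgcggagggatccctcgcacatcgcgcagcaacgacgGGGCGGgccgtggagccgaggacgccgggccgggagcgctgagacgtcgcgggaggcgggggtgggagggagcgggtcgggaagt

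A pair of regions away from starts had nearly the same GC content over the whole region and opposite effects. The region 33871 bp upstream of Foxk1 (chr5:142367226-142368025, 65.2% GC) had an effect of 0.94, and the region 10742 bp upstream of the nearest coding start of Gata4 (chr14:63255626-63256400, 66.1% GC) had one of -1.56. Foxk1 encodes a forkhead repressor active in many tissues, and Gata4 a regulator of heart and gut development. The Foxk1 stretch holds 36 CpG with matches for NRF1 (GCGCATGC), CACGTG at 2 places, RUNX (TGTGGT, on the opposite strand) and the CTCF core (AGGGGGC, on the opposite strand), and the Gata4 stretch 44 CpG with no match. The printed stretches themselves had 71.3% and 77.0% GC. A 50 bp region 192 bp upstream of Lhx6 (chr2:36105576-36105625, effect 0.61) is printed whole, as it holds an AP-1 match (TGAGTCA) followed closely by a CCAAT box. The labels give a size range of 200 to 400 bp for both libraries, which is longer than this region. What these 50 bases do alone was not tested.
Foxk1, positive: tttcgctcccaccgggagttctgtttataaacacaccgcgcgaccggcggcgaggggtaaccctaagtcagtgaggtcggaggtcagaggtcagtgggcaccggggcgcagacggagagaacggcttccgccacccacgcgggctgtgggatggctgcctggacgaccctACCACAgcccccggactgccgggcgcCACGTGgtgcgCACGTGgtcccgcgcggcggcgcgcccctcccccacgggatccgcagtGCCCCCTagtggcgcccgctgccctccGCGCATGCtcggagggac
Gata4, negative: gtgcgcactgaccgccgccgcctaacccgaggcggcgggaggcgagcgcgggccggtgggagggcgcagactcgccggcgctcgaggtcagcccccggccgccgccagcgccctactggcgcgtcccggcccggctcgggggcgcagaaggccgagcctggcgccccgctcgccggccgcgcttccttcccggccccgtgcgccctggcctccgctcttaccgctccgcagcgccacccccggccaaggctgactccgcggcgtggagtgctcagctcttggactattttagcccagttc
Lhx6, positive: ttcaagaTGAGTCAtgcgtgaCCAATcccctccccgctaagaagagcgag

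Regions near developmental factor genes were positive less often than listed regions as a whole. Of the 93 regions 62 had a positive effect, or 66.7% (95% Wilson interval 56.6 to 75.4%, which covers counting over regions only), against 80.7% of the 14973 regions on chromosomes 1 to 19, X and Y. All 93 are among the 13.1% of tested regions that the authors listed, and their adjusted p in the authors' deposited table ranged from 6.74e-09 to 0.00912. The median effect was 0.70, close to the 0.73 of all listed regions, but the lower quartile was -0.87 against 0.56. Positive effects had a median of 0.78 (all listed regions 0.80) and negative effects one of -1.13 (-1.07). No effect lay between -0.50 and 0.49. High effects were few: 11 regions (11.8%) reached 1, against 22.8% of all listed regions, and 18 (19.4%) were at -1 or lower, against 11.2%.

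The shortfall lay at promoters. Promoter regions, with a centre within 1000 bp of any annotated start, were positive in 20 of 43 cases (46.5%, interval 32.5 to 61.1%), against 75.1% of all listed promoter regions. With regions under 500 bp apart merged, 51.4% of 37 promoter regions were positive. A promoter window of 2000 bp gave 54.7% of 53, and one of 500 bp gave 45.5% of 33. Shares of all listed promoter regions under these settings are not given here. Distal regions were positive in 42 of 50 (84.0%, interval 71.5 to 91.7%), against 86.9% of all listed distal regions. The median effect of the promoter regions was -0.55, where all listed promoter regions had 0.72, and the median of the distal regions was 0.77, where all listed distal regions had 0.75. No test was made of these differences, since regions of 1 table are not replicates.

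**Figure D1:**
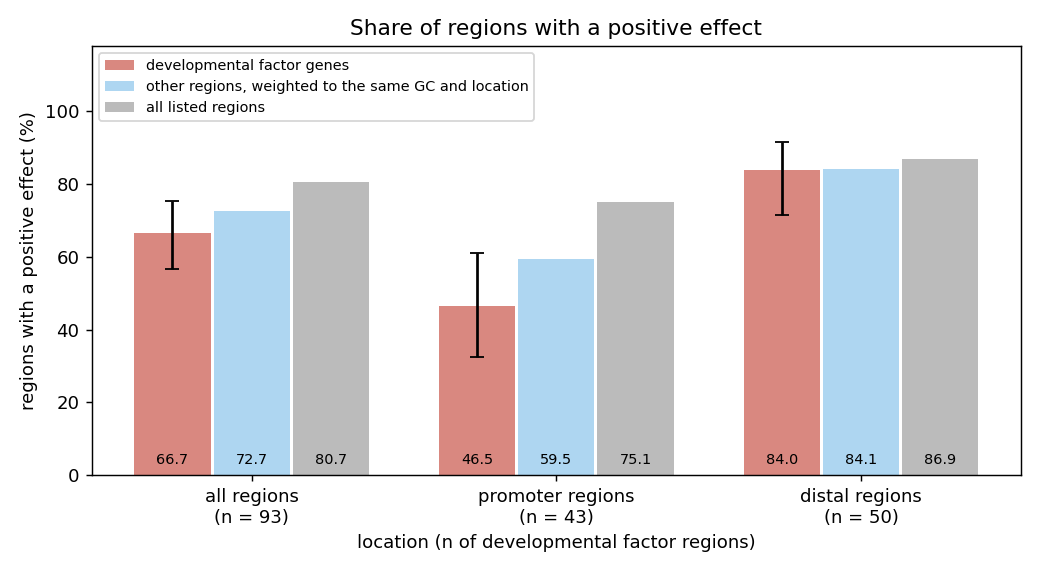
Share of regions with a positive effect, in percent, for the developmental factor genes (bars with 95% Wilson intervals over regions), for other regions weighted to the same GC and location classes, and for all listed regions. At promoters the 3 shares are 46.5%, 59.5% and 75.1%, and at distal regions 84.0%, 84.1% and 86.9%.

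Negative regions were richer in GC than positive ones, with medians of 70.0% and 58.1%, as they were over all listed regions (67.3% and 55.5%). What part GC content has in the direction was not tested. The median GC content of the 93 regions was 61.7% against 56.5% for all listed regions, and 36 of 93 (38.7%) had 65% GC or more, against 20.1%. The CpG observed over expected ratio, which is near 1 in CpG islands and low in most of the genome, had a median of 0.70 against 0.53. At 65% GC or more, 21 of 26 promoter regions were negative (80.8%), against 57.6% of 2757 other promoter regions. Under 65% GC only 2 of 17 promoter regions were negative, those of Foxa1 (62.0% GC, -0.81) and the downstream one of Sox12 (64.0% GC, -0.81), a share of 11.8% against 6.85% of the others. The 5 GC-rich promoter regions with positive effects belonged to Sox12 (1.41), Foxk2 (1.36), Foxc2 (1.27), Sox21 (0.68) and Foxj1 (0.67). All 9 promoter regions with 70 to under 75% GC were negative, where 19.7% of other promoter regions were positive, as were all 4 with 75% or more, where 6.03% of others were positive.

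When other regions were weighted to the same 5-point GC classes and the same location, 72.7% of them were positive and the developmental genes differed from that by -6.06 percentage points. At promoters the weighted share was 59.5% against the 46.5% seen, and at distal regions 84.1% against 84.0%. In counts, 20 promoter regions were positive where the weighting gave 25.6, and 42 distal regions where it gave 42.1. Both weighted shares lie inside the Wilson intervals of the developmental genes.

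**Figure D2:**
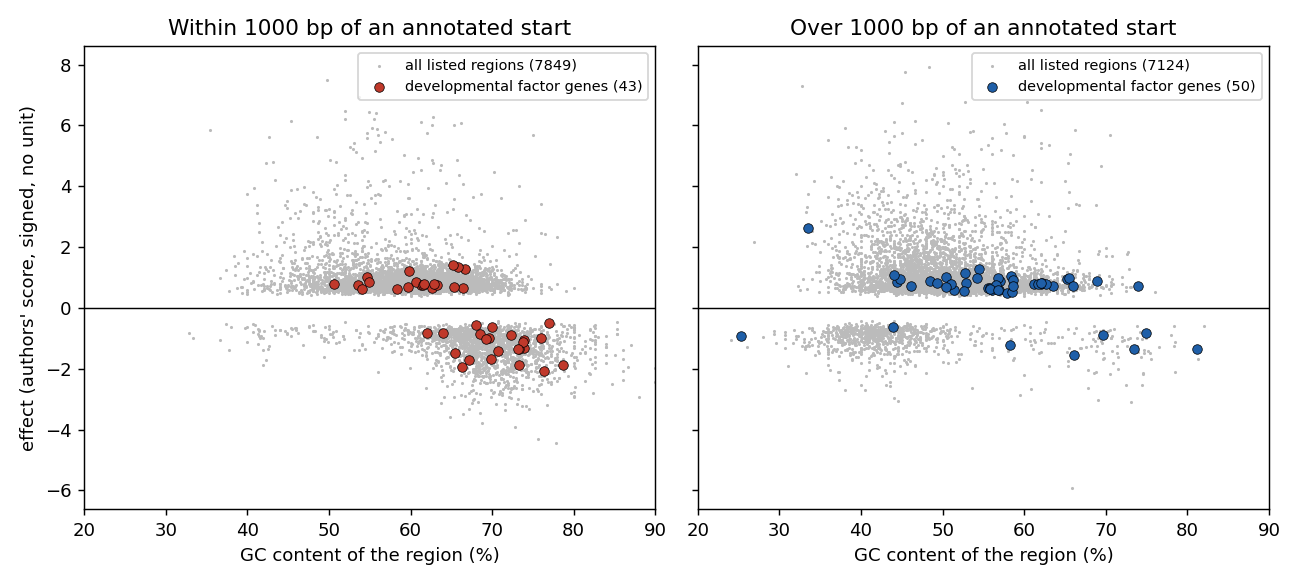
Effect (authors' signed score, no unit) against GC content in percent for promoter regions (left) and distal regions (right), with all listed regions in grey and the developmental factor regions as larger points. At promoters, the 9 developmental regions with 70 to under 75% GC and the 4 with more all lie below 0, while 15 of the 17 with under 65% GC lie above it.

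Distal regions with negative effects were few and mostly GC-rich, with a median GC content of 67.8%, whereas all listed distal regions with negative effects had a median of 42.7%. Of the 8, Gata4 had 2 (-1.56 and -0.82), Foxo6 had 1 in an exon at 81.2% GC (-1.36), Zic5 had 1 in an exon (-1.36) and Foxe1 had 1 at 69.6% GC (-0.88). The remaining ones lay near Pax2 (58.2% GC, -1.23), Foxb2 (43.9% GC, -0.64) and Sox7 (25.3% GC, -0.93). Pax2 acts in kidney and ear formation and Sox7 in blood vessels. Distal regions with 65% GC or more were split evenly, 5 positive and 5 negative. Their positive ones lay near Foxk1 (0.94), Lhx6 (0.99), Pax5 (0.87), Pax6 (0.71) and Sox4 (0.72). Of other distal regions with 65% GC or more 39.9% were negative. Below that GC content 37 of 40 distal regions were positive, against 87.8% of the others.

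Position around the start is described next. The centre of 38 regions lay within 1000 bp of the start of the gene itself, of which 17 were positive and 21 negative, against 73.6% positive and 26.4% negative of the 7147 listed regions at any coding start. Upstream of the start 6 of 14 were negative, and downstream 15 of 24, and over all listed regions at a coding start 75.8% upstream and 72.0% downstream were positive. Away from the start 45 of 55 were positive: 15 of 19 over 1000 to 5000 bp, 18 of 20 over 5000 to 20000 bp and 12 of 16 beyond. The shares over all listed regions in these distance classes were 89.96%, 89.5% and 85.5%. Regions centred in an exon were negative in 21 of 40 cases, those in introns in 7 of 28 and those between genes in 3 of 25. The shares over all listed regions were 21.8% in exons, 21.3% in introns and 14.9% between genes.

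**Figure D3:**
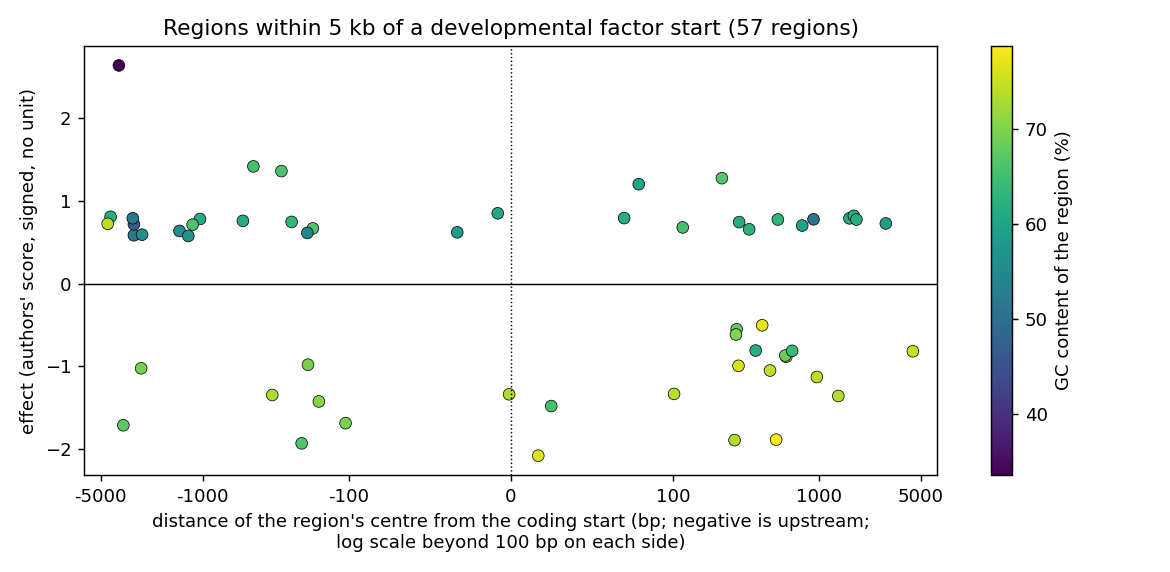
Effect (authors' signed score, no unit) against the distance in bp of the region's centre from the coding start, upstream negative and on a log scale beyond 100 bp, for the 57 regions within 5 kb, coloured by GC content in percent. The 25 negative regions within 5 kb are mostly at high GC and 21 of them lie within 1000 bp of the start; the highest point, at 33.5% GC, is the region near Pax4.

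The homeobox families had about the same share of positive regions as the whole list. Over Hox, Lhx, Nkx, Dlx, Irx, Msx and the sine oculis homeobox genes, 26 of 32 regions were positive (81.3%, all listed regions 80.7%), with a median effect of 0.73 (all listed regions 0.73). The 9 regions of the LIM homeobox family Lhx, whose members pattern the forebrain, limbs and motor neurons, were positive throughout, from 0.49 at Lhx2 to 0.99 at Lhx6, where 94.3% of other regions of the same GC and location were positive. Lhx2, needed for eye and forebrain development, had 0.85 at its start and 0.49 at 18129 bp downstream. The 3 regions of Lhx6, a regulator of cortical interneurons, had 0.99, 0.64 and 0.61, and the 2 of the gonad and brain factor Lhx9 had 0.92 and 0.90. Lhx1 had 0.77 and Lhx5 0.51.

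Hox genes, which set positional identity along the body axis, lie in 4 clusters, and 9 of 39 had a listed region. Of 11 regions 8 were positive (72.7%), against 72.3% of other regions of the same GC and location. In the HoxA cluster the start of Hoxa13, which patterns the limb tips and hindgut, had the lowest effect of all 93 regions, -2.08 at 76.4% GC, whereas a region 9883 bp upstream of it (50.4% GC) had 1.01. Hoxa7 had 0.62 at its start. The 3 HoxB regions, given to Hoxb4, Hoxb6 and Hoxb8, had 0.82, 0.82 and 0.71 and all lay over 1000 bp from the start. In HoxC, the start of Hoxc10 had 1.20 and a region upstream of Hoxc8 had 0.79. The HoxD cluster had 2 regions, both at the start of Hoxd8, with effects of -1.34 (73.3% GC) and -1.88 (78.7% GC). Direction differed between the starts of Hox genes: the negative starts of Hoxa13 and Hoxd8 had at least 73.3% GC, and the positive ones of Hoxa7 and Hoxc10 had 58.3% and 59.9%.

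Other homeobox families had few regions. Nkx genes, which act in heart, brain and gut, had 5. The start of Nkx2-4 had -0.99 at 76.0% GC, Nkx2-6 had 0.99 and Nkx1-1 had 0.65. The 2 regions of Nkx6-3 had -1.71, within the gene Ank1, and 0.70. Of the sine oculis homeobox genes, Six4 had 0.72, Six5 0.76 and the eye and forebrain gene Six3 -1.02 at 69.2% GC. Dlx1 had 0.79, Dlx3 0.58 and Irx5 1.15, and no listed region was given to the 3 Msx genes.

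**Figure D4:**
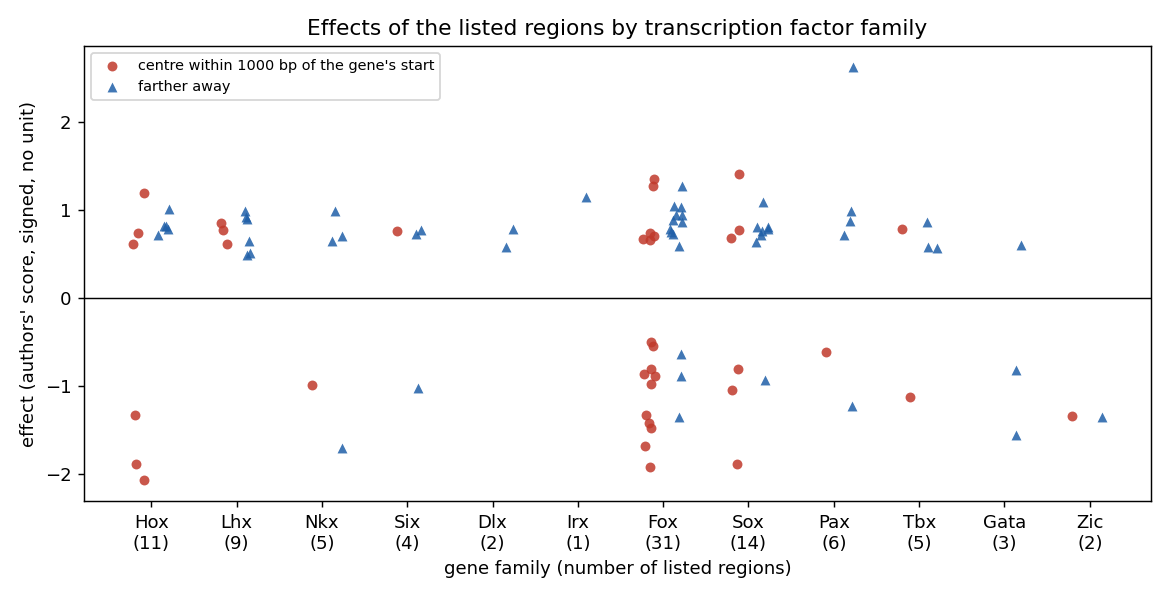
Effect (authors' signed score, no unit) of each of the 93 regions by gene family, with circles for centres up to 1000 bp from that gene's start and triangles for others. All 9 Lhx points lie above 0, both Zic points lie below 0, and 14 of the 31 Fox points lie below 0, 11 of them at starts.

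Forkhead genes had the most regions and were mixed in sign. Of 31 Fox regions 17 were positive (54.8%), where other regions of the same GC and location were positive in 67.2%. At their own starts 11 of 17 were negative, and away from them 11 of 14 were positive. These counts are of regions and not of genes. Foxj3 (-1.42 and -0.87), Foxp4 (-1.69 and -0.55), Foxk2 (1.36 and -0.50) and Foxn3 (0.70 and 0.65) each gave 2 neighbouring start regions. Among the widely active genes, the starts of Foxj2 (-1.93), Foxp4 (-1.69), Foxk1 (-1.48), Foxj3 (-1.42) and Foxn2 (-1.33) had negative regions, whereas the start of Foxk2 had a region of 1.36 upstream and one of -0.50 downstream. Foxn3, a checkpoint factor, had 4 positive regions, 2 within 1000 bp of the start (0.70 and 0.65), 1 at 66709 bp downstream (0.87) and 1 at 60226 bp upstream (0.94). Foxo3, a regulator of cell survival, had 0.78 and its relative Foxo4 had 0.74.

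Forkhead genes restricted to particular organs showed both signs. Foxc2, needed for lymphatic vessels, had 1.27 at its start and 0.59 upstream. Regions given to the neighbouring genes Foxf1 and Foxl1, both expressed in gut mesenchyme, had 0.73 and 1.27. They lay 36735 bp upstream of Foxf1 and 42723 bp downstream of Foxl1, each in an intron of Gm20388. The starts of Fendrr (12762 bp) and Gm37609 (29720 bp) were nearer. The Foxc2 regions also lay within Gm20388. Foxf2 had 1.03, 580 bp from the start of Gm11378, Foxn4 1.04 inside Acacb, Foxi2 0.89 and Foxj1, the master gene of motile cilia, 0.67. Negative regions lay at the starts of the liver and lung factor Foxa1 (-0.81) and of Foxd2 (-0.98) and Foxe3 (-0.88).

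Of the 14 regions of Sox genes 10 were positive (71.4%), against 69.0% of other regions of the same GC and location. Sox12 had the second highest effect of the set, 1.41 over 1375 bp upstream of its start, as well as -0.81 in a 75 bp region 658 bp downstream and 0.81 farther on. Sox4, which acts in lymphocyte development among other roles, had 0.77, 0.81 and 0.72. Sox13, known from gamma-delta T cells, had -1.05 at its start (73.9% GC) and 0.76 in an intron. The germ cell gene Sox30 had -1.89 at its start, at 73.3% GC. Regions with positive effects were also given to Sox5 (1.09), Sox1 (0.78), Sox21 (0.68) and Sox6 (0.63).

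The remaining families were small. Of the 5 regions given to Tbx genes 4 were positive, where 80.7% of other regions of the same GC and location were. The positive ones lay 70 bp from the start of Tbx1 (0.79), 1257 bp from Tbx6 (0.57), 93535 bp from Tbx4 (0.57) and 68860 bp from Tbx19 (0.86), the last of them 15 bp from the start of 4930568G15Rik. The negative one lay 972 bp from the start of Tbx18 (-1.13, 73.8% GC). Tbx1 acts in pharyngeal and heart development. Both Zic regions, at the neighbouring genes Zic2 and Zic5 of the neural tube, were negative, at -1.35 (73.1% GC) and -1.36 (73.5% GC). Gata5 had 0.60, beside the 2 negative regions of Gata4. Of the 6 Pax regions 4 were positive, against 67.6% of other regions of the same GC and location, and these were given to Pax4, Pax5 (0.87), Pax6 (0.71) and Pax7 (0.98), and Pax2 and Pax6 had a negative one each.

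Pax4, which specifies insulin-producing cells, had the highest effect of the 93 regions, 2.63 at chr6:28452951-28453275, 3760 bp upstream of its start. No other region of the set exceeded 2, against 5.52% of all listed regions. Its GC content was 33.5%, and repeats masked in the assembly covered 60.0% of its bases. The unit TTTAGT occurs 17 times in a row over 102 bases of the printed window, which is shown for that reason. The capitals mark a RUNX match on the opposite strand. Whether the tandem repeat affected how reads were placed there was not tested. None of the 93 regions had a near-identical copy elsewhere on the chromosomes, as did 5.84% of all listed regions, and 3 of 93 were over 50% soft-masked, against 5.84%.
Pax4, positive: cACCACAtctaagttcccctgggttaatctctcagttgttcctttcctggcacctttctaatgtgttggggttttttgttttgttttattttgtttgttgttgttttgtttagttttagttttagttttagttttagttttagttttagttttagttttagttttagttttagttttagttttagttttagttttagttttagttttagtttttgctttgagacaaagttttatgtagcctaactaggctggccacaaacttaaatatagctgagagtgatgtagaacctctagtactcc

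Some genes had regions of both signs, a share that was not computed over all coding genes with at least 2 listed regions. Of the 18 genes with at least 2 regions, 8 had both signs, namely Hoxa13, Foxj2, Foxk1, Foxk2, Nkx6-3, Sox12, Sox13 and Pax6. The largest gap, 3.09 between the highest and lowest effect, was that of Hoxa13. The negative region lay within 1000 bp of the start in 7 of the 8, all but Nkx6-3. In 6 of the 8 (Hoxa13, Foxj2, Foxk1, Nkx6-3, Sox13 and Pax6) it lay nearer the start than every positive region. Over all listed regions, 26.4% at a coding start were negative, against 10.0% at over 1000 to 5000 bp from it. The positive region of Foxj2 was itself a promoter region, 5 bp from the start of Gm5112. In Foxk2 and Sox12 a positive region upstream lay nearer. For Foxk2 the positive region lay 289 bp upstream (1.36, 65.8% GC) and the negative one 410 bp downstream (-0.50, 77.0% GC). Pax6, the eye master gene, had -0.62 at 271 bp downstream and 0.71 at 1174 bp upstream, both 50 bp wide.

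**Figure D5:**
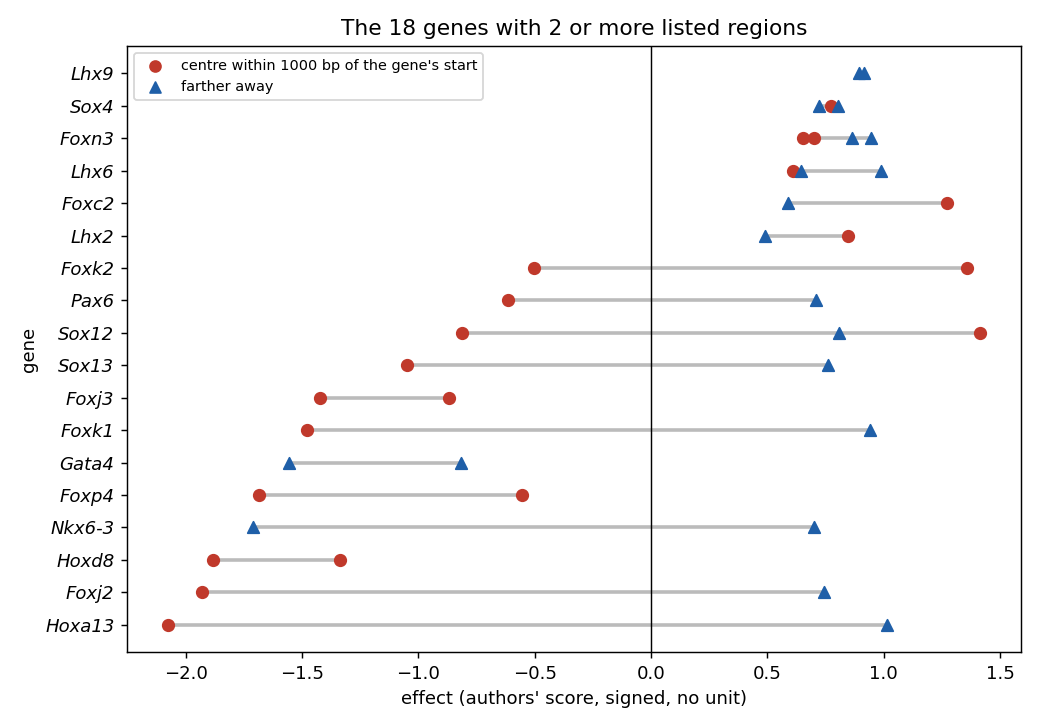
Effects (authors' signed score, no unit) of the regions of the 18 genes with 2 or more, ordered by lowest effect, with circles for centres up to 1000 bp from that gene's start, triangles for others and grey lines joining regions of 1 gene. Lines of 8 genes cross 0, with that of Hoxa13 running from -2.08 to 1.01.

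From general knowledge, 14 genes were listed as active in many cell types or in lymphocytes (Foxk1, Foxk2, Foxj2, Foxj3, Foxn2, Foxn3, Foxo3, Foxo4, Foxm1, Foxp4, Sox4, Sox12, Sox13 and Six5). They had 26 regions, 16 of them positive (61.5%), against 46 of 67 (68.7%) for the other genes and 80.7% of all listed regions. At their own starts the counts were 7 of 17 and 10 of 21, beside 73.6% of all listed regions at a coding start. Farther away the counts were 9 of 9 and 36 of 46, beside 85.5% to 89.96% of all listed regions by distance class. The list was drawn up with results of these data known, so no conclusion is drawn from it. The family members left out for their T cell roles had 12 regions, of which 11 were positive (91.7%), at 0.64 to 1.01, beside 86.9% of all listed distal regions. The exception was a region 50069 bp from Foxp1 (-0.62), and all but 2 of the 12, those at the starts of Foxo1 (0.85) and Tbx21 (0.64), were distal.

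Developmental factor genes had a listed region at the start less often than coding genes in general. Of 173 genes that meet the rule 70 (40.5%) were the nearest coding start of a listed region, against 43.0% of 21827 coding genes. A region centred within 1000 bp of the start was listed for 32 (18.5%) against 30.1%. Among families the share of genes with any region was highest for the sine oculis homeobox genes (4 of 6) and for Lhx (5 of 8). It was 22 of 41 for Fox, 9 of 39 for Hox and 1 of 6 for Irx. A gene with no listed region may have been tested and not listed or not tested, which this table does not tell apart.

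Consensus sequences were searched on both strands, and a match is a description of the letters only. GGGCGG, bound by SP and KLF factors, was present in 25 of 31 negative regions (80.6%) and in 26 of 62 positive ones (41.9%), beside 64.5% and 49.0% over all listed regions. Location went with it: within promoters GGGCGG was in 19 of 23 negative and 15 of 20 positive regions, beside 80.2% of all listed promoter regions. TGANTCA, the AP-1 site of Fos and Jun factors, was in 1 negative and 13 positive regions beside 18.3% of all listed negative and 23.1% of all listed positive regions. Location went with this match too, which was in 12.5% of all listed promoter regions and 22.2% of all listed regions. Within promoters it was in 0 of 23 negative and 4 of 20 positive regions. At promoters, CCAAT was in 14 of 20 positive and 6 of 23 negative regions, beside 56.3% of all listed promoter regions. The positive promoter regions were wider, with a median of 762.5 bp against 475 bp. In the central 200 bp, which takes in flanking bases where a region is narrower, CCAAT was in 4 of 20 and 2 of 23. The ETS letters CCGGAAG were in 4 of 43 promoter regions (9.30%), beside 26.9% of all listed promoter regions. Shares depend on width: the median width was 550 bp for these regions and 625 bp for all listed ones. In the same central 200 bp, flanking bases included, GGGCGG was found for 58.1% of negative and 22.6% of positive regions (all listed regions 49.8% and 30.5%). TGANTCA was found there for 3.23% and 12.9% (8.89% and 12.6%).

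The letters bound by the families themselves were counted in the same way, each share being given beside that of all listed regions. The homeodomain letters TAATTA were in 1 region, that of Hoxc10 (1.08%, all listed 4.33%). TGTTTAC for Fox was in 4 regions (4.30%, all listed 5.62%), namely those of Dlx1, Foxj2 (0.74), Sox12 (1.41) and Sox6, and ACAATGG for Sox in 2 (2.15%, all listed 5.08%). AGATAA for Gata was in 10 (10.8% and 12.9%), TCACACCT for T-box in 2 (2.15% and 2.21%) and CACTTGA for Nkx in 6 (6.45% and 5.83%). Of the remaining consensus sequences, TTCNNNGAA for STAT was in 18 regions (19.4% and 16.9%), TGTGGT for RUNX in 22 (23.7% and 30.8%), CACGTG in 14 (15.1% and 14.0%) and AGGGGGC, the CTCF core, in 16 (17.2% and 20.4%). TGACGTCA (CRE) was in 4 (4.30% and 3.61%), AAGATGGC (YY1) in 5 (5.38% and 6.40%) and GCGCATGC (NRF1) in 1, that upstream of Foxk1 (1.08% and 4.68%).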

How the data were processed

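STARR-seq output was measured in 2 libraries of activated Th1 cells. The authors deposited 1 table of regions that joins both libraries on mm10, per the file headers, giving every region a signed effect (a score) and a p-value, raw and adjusted. Of the aligner, caller and normalization nothing is given in the sources used here. The list holds adjusted p-values under 0.01, and comparing them with the raw ones implies 114722 tested regions for 82.2% of rows (within 0.5). Another 21 regions lie on other scaffolds and were not used. Depth is unknown, so precision rests on the p-values the authors deposited.

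Starts were taken from the GENCODE M21 basic set and sequence from GRCm38.p6, which is mm10, with Python 3.11.15, pandas 2.3.3, pysam 0.24.0, scipy 1.17.1, samtools 1.23.1 and matplotlib 3.10.9. Copies were matches of the central 300 bp with at least 95% identity over 240 bp (minimap2 2.31, k = 19, w = 10, N = 50, p = 0.5). For the weighted share, the share of positive effects among other regions in each class of GC (5 percentage points, under 40% and 75% or more being 1 class each) and location was weighted by the number of developmental factor regions. No test was made across regions. The rules were tested on simulated data. The families, gene lists and consensus sequences were chosen with earlier results of these data known. The rule named the 12 highest and 12 lowest effects, all Hox regions, genes with at least 4 regions, the gene with most regions in each family, up to 6 genes with both signs and the 5 left-out genes; all other genes named, Sox13 and Pax6 among them, were chosen after their values were seen. Printed stretches came from named regions. The values of some genes are counted but not reported singly here.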

Additional observations from a re-analysis of the deposited data

How the results depend on the processing

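No paired analysis was possible because the table joins both libraries of 1 group, and leaving out a library was not possible for the same reason. Of 69 recomputed shares, medians and counts of regions, 63 stayed within the interval of the reported value (for counts, within 1.5 times). These covered distances of 20 and 50 kb, distance from the region's edge, all transcripts, merging regions under 500 bp apart, single-copy regions, promoter windows of 500 and 2000 bp, 1 mean per gene (65.7% positive over 70 genes) and leaving out the Hox (65.9%) or Fox (72.6%) genes. An adjusted p under 0.001 left 51 regions, 60.8% of them positive. An absolute effect of at least 1 left 29 regions: 37.9% of these were positive (all listed regions 67.1%), with 26.3% at promoters, 60.0% at distal regions and a median effect of -1.23. The difference from other regions of like GC and location ranged from -7.64 to -3.58 percentage points over all alternatives, including classes of side, CpG and distance, chosen after the data were seen. In the central 200 bp, shorter than most regions, the share with a match was below the interval of the whole-region share for 15 of 17 consensus sequences. With 43 promoter regions, the intervals are wide.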
